A study of Mus musculus with 11 samples.

Results

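The interferon-inducible p200 family of the mouse, also called the HIN-200 or PYHIN family, was followed together with Aim2 in kidney RNA-seq of 11 mice. The members were chosen by symbol, as listed in the gene column of the count table: Ifi202b, Ifi203, Ifi204, Ifi205, Ifi207, Ifi209, Ifi211, Ifi213, Mndal and Aim2. All 10 symbols were present, among 25677 genes in all. All mice were female and 21 weeks old, and each gave 1 library. Ctr were 3 C57B6 (C57BL/6J) mice, Lpr were 4 untreated MRL/lpr mice, and DNase were 4 MRL/lpr mice given daily intraperitoneal DNase I from week 17 of age. MRL/lpr mice develop a spontaneous lupus-like disease with nephritis and carry the lpr mutation of the death receptor gene Fas in every cell. The Lpr and DNase groups share that mutation and the MRL background, and Ctr has neither, which means that strain and disease cannot be told apart in any comparison with Ctr. The comparisons ask how the family differs between lupus-prone and control kidneys and whether DNase I moves it.

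Most proteins of this family carry a DNA-binding HIN domain, and most carry a pyrin domain through which they bind partner proteins. Aim2 binds double-stranded DNA in the cytosol and, through the adaptor ASC (the product of Pycard), activates caspase-1, which matures the cytokines IL-1β and IL-18 and cleaves gasdermin D to open membrane pores. The Ifi202b protein has HIN domains but no pyrin domain. It binds DNA and is known as an inhibitor of AIM2, and the gene is a lupus candidate in a chromosome 1 interval of NZB mice. The Ifi204 protein (p204) is a DNA sensor that acts through STING and is often compared with human IFI16. As their name says, many of these genes respond to interferon, and they are best known from macrophages and other leukocytes.

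All 10 members lie in a single cluster on chromosome 1, at chr1:173350879-174031810 of GRCm38 (GENCODE vM21), a stretch of 680932 bases. It holds 13 genes of the count table, 10 on the minus and 3 on the plus strand. In chromosomal order these are Aim2, Ifi206, Ifi214, Ifi213, Ifi209, Ifi208, Ifi207, Ifi204, Mndal, Ifi211, Ifi203, Ifi202b and Ifi205. Ifi206, Ifi208 and Ifi214 are not among the 10 members and are given where they bear on them. Cadm3, a cell adhesion gene, is the nearest annotated protein-coding neighbour on the Aim2 side, and the odorant receptor gene Olfr433 is the nearest on the Ifi205 side.

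The RefSeq start regions show what the members share in sequence. The letters GAAANNGAAA, the core of the interferon-stimulated response element (ISRE) to which interferon-activated factors bind, were searched on both strands of the 250 bases before each start. They were found in 6 of the 9 members with a listed start (Ifi203, Ifi205, Ifi207, Ifi211, Ifi213 and Mndal) and in 3 of 3 of the other cluster genes, counting a gene when any of its listed starts held a match, against 936 of 27025 gene symbols in the whole table (3.46%). Ifi204 is not among the listed starts. The sequences are from RefSeq (GRCm38.p6). The 30 bases around the match are shown 5′ to 3′ on the strand of each gene, with the match in capitals, because nearly the same block recurs in genes that rose and in genes that fell:
Ifi207, chr1:173741831-173741860, minus strand: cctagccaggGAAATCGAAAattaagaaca
Ifi211, chr1:173913064-173913093, minus strand: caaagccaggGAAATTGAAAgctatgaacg
Ifi205, chr1:174031870-174031899, minus strand: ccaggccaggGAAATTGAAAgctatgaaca
Ifi203, chr1:173942508-173942537, minus strand: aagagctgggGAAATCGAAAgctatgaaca
Mndal, chr1:173880204-173880233, minus strand: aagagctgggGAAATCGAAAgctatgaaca
Ifi213, chr1:173599326-173599355, minus strand: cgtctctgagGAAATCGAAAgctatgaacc
Ifi208, chr1:173673597-173673626, plus strand: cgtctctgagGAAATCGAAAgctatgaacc
Ifi206, chr1:173491339-173491368, minus strand: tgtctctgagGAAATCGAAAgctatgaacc
Ifi214, chr1:173536017-173536046, minus strand: agtctctgagGAAATCGAAAgcgatgcact

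The matches began between 35 bases (Ifi203) and 134 bases (Ifi205) before the listed start. In Ifi203, Mndal, Ifi213 and Ifi211 the match lies inside the annotated RefSeq span of the gene, so it is not upstream of the whole gene. The farther upstream Ifi203 start held no match. Of 14 listed starts in the cluster, the first transcribed bases of 5 were found in a GENCODE transcript of the gene. A separate Mndal start, from RefSeq as well, held a match of the opposite orientation 54 bases before it. The 250-base windows of Ifi206, Ifi213 and Ifi208 were 98.6% to 99.6% identical over 217 to 235 aligned bases, and those of Mndal and Ifi203 were 97.5% identical over 239. Aim2, Ifi209 and Ifi202b had no match in these windows, although the Ifi209 window was 95.2% identical to that of Ifi214, which had one. A match is a description of the letters and not evidence of a working site.

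The members that rose most in MRL/lpr kidneys, Ifi202b and Aim2, were thus without these letters in the window searched. The only listed Aim2 start lies inside the annotated gene, which begins at chr1:173350879 in GENCODE vM21. The bases before that beginning were not searched. The Ifi202b window held the letters TTCNNNGAA, the core of the gamma-activated site bound by STAT factors, 148 bases before its start, a match that 7.02% of all start regions hold. It is in capitals here, beside the corresponding stretch of Aim2 outside annotated exons:
Ifi202b, chr1:173982845-173983094, minus strand: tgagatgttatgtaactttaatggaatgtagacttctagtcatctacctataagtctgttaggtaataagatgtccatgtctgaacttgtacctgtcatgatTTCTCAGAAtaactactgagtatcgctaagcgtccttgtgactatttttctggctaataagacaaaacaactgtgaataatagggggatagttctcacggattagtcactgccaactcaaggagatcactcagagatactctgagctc
Aim2, chr1:173420354-173420570, plus strand: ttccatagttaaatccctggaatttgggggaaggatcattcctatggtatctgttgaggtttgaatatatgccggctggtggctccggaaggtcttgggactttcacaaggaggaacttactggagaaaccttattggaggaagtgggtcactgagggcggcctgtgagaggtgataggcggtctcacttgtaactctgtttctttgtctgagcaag

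The libraries held 33469858 to 38460873 counts. Levels are given as CPM, counts scaled to the size of each library, and the test is edgeR's quasi-likelihood test with Benjamini-Hochberg adjusted p-values over all tested genes. A gene is called when its adjusted p is under 0.05 and its absolute log2 fold change is above 2. Lpr replicate 3 stood apart from the other libraries, with log2 levels that fell by 0.39 per doubling of transcript length, where the other 10 libraries lay between -0.04 and 0.08. It held the lowest Lpr value of 6 of the 10 members. It also held the highest Lpr value of Ifi202b (15.0 CPM), the member with the shortest length behind the FPKM (1796 bases). The next shortest members, Ifi205 (1924 bases) and Ifi211 (2007 bases), had their lowest Lpr values in it (2.13 and 1.42 CPM). The 5 leukocyte marker genes (Ptprc, Coro1a, Laptm5, Cd52 and Cd53) summed to 49.8 to 69.9 CPM in Ctr, 287 to 507 CPM in Lpr and 230 to 432 CPM in DNase. The 11 kidney epithelial markers summed to 16680 to 18032 CPM in Ctr, 10192 to 15451 CPM in Lpr and 13363 to 17321 CPM in DNase, with none of the 11 at 0. In whole kidney, more cells of a type and more RNA per cell cannot be told apart.

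In Lpr against Ctr, 3 members were called higher (Ifi202b, Aim2 and Ifi205) and 1 was called lower (Ifi213), out of 10 tested. Of all 16074 genes tested, 4.65% were called higher and 1.13% lower. By adjusted p alone, 6 members rose and 1 fell, against 7.27% and 2.92% of all genes. The groups did not overlap for 7 members higher in Lpr and 1 lower, against 14.2% and 11.4% of all genes. The median log2 fold change of the 10 members was 1.62, against 0.03 over all tested genes. In DNase against Ctr, which uses the same 3 Ctr libraries, Ifi202b and Aim2 were called higher and Ifi213 lower, where 4.56% and 1.45% of 16100 genes were called. Again 6 members rose and 1 fell by adjusted p alone, against 13.1% and 8.61% of all genes, and for these 7 the groups did not overlap, against 18.2% and 13.7% of all genes in the same directions. The DNase median was 1.00, against 0.00 over all tested genes.

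**Figure D1:**
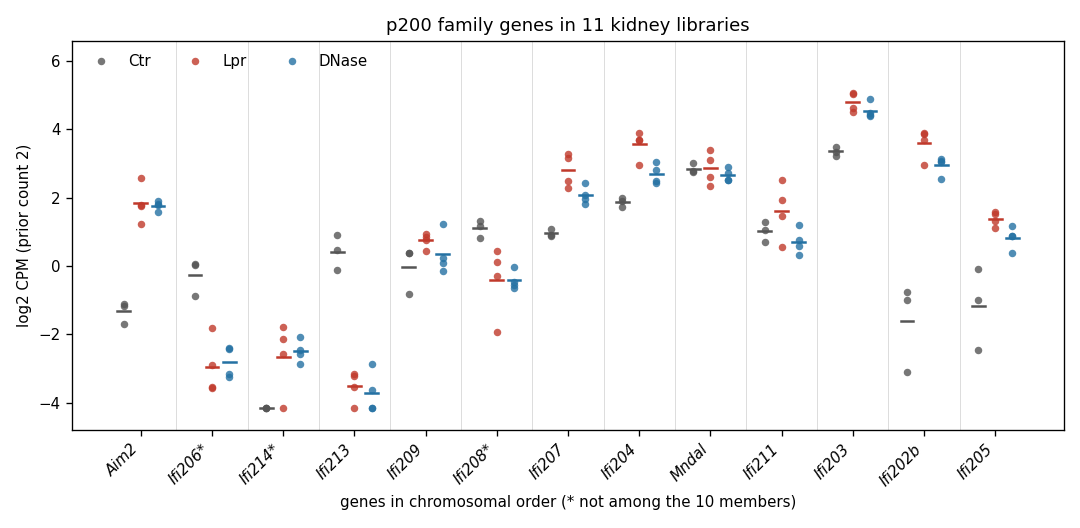
Log2 CPM (prior count 2) of the 10 members and of the 3 other genes of the cluster (marked *) in each library, in chromosomal order; points are mice and bars are group means. Aim2 and Ifi202b were higher in all 8 MRL/lpr libraries than in the 3 Ctr libraries, and Ifi213 was lower in all 8.

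Ifi202b, the pyrin-less inhibitor of AIM2, showed the largest rise of the family. Its level was 0.539, 0.446 and 0.0599 CPM in the 3 Ctr kidneys, 12.9, 14.5, 15.0 and 7.79 CPM in Lpr, and 5.83, 8.70, 8.12 and 8.42 CPM in DNase. Every MRL/lpr library lay far above the highest Ctr library, and the lowest MRL/lpr value was in DNase. The log2 fold change was 5.16 ± 0.60 (SE) in Lpr against Ctr (35.8-fold, adjusted p = 0.00127) and 4.46 ± 0.47 in DNase against Ctr (21.9-fold, adjusted p = 0.000163). The Ctr values rest on 2 to 20 counts, so the size of the fold is less certain than its direction.

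Aim2, the cytosolic DNA sensor itself, rose as well. It was at 0.404, 0.255 and 0.390 CPM in Ctr, at 3.31, 5.96, 2.28 and 3.43 CPM in Lpr, and at 3.37, 3.71, 3.48 and 2.91 CPM in DNase. The MRL/lpr groups overlapped with each other and neither overlapped with Ctr. The log2 fold change was 3.42 ± 0.45 in Lpr (10.7-fold, adjusted p = 0.00206) and 3.25 ± 0.27 in DNase (9.50-fold, adjusted p = 3.92e-05). Aim2 overlaps Cadm3 on the opposite strand, with 0 exon bases shared in GENCODE vM21, and the annotation and strand setting of the counting are not given in the sources used here. Cadm3 moved the other way, with a log2 fold change of -0.53 in Lpr that did not pass the test (adjusted p = 0.689).

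Ifi205 was the third member called higher in Lpr. Its level was 0.890, 0.128 and 0.450 CPM in Ctr, 2.80, 2.42, 2.13 and 2.95 CPM in Lpr, and 2.17, 1.79, 1.24 and 1.78 CPM in DNase. No MRL/lpr library fell within the Ctr range. The log2 fold change was 2.38 ± 0.55 in Lpr (adjusted p = 0.0278) and 1.80 ± 0.51 in DNase (adjusted p = 0.0321). The spread within Ctr was wide, and the call in Lpr was lost without Ctr replicate 3, Lpr replicate 1, Lpr replicate 2 or Lpr replicate 4, at adjusted p between 0.0571 and 0.115, and without Ctr replicate 2 because the log2 fold change was then 1.94. Without Ctr replicate 1, the highest Ctr library, the log2 fold change was 3.14 in Lpr and 2.56 in DNase. The DNase result missed the adjusted p without Ctr replicate 3, DNase replicate 1, DNase replicate 2 or DNase replicate 4 (0.0614 to 0.0933). Of its transcript, 15.0% of 100-base windows also occur in Ifi211, so reads can be split between these genes.

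Ifi203, Ifi204 and Ifi207 rose by a smaller factor. Ifi203 was at 11.2, 9.31 and 10.1 CPM in Ctr, 33.4, 32.7, 22.7 and 24.6 CPM in Lpr, and 20.9, 29.5, 22.3 and 21.6 CPM in DNase. Ifi204, the p204 sensor, was at 3.91, 3.28 and 3.69 CPM in Ctr, 14.8, 12.9, 13.0 and 7.65 CPM in Lpr, and 5.35, 6.94, 8.22 and 5.56 CPM in DNase. For both genes every MRL/lpr library lay above every Ctr library. Their log2 fold changes in Lpr were 1.49 ± 0.20 (adjusted p = 0.00252) and 1.75 ± 0.27 (adjusted p = 0.00441), and in DNase 1.21 ± 0.15 (adjusted p = 0.00037) and 0.85 ± 0.20 (adjusted p = 0.0138). Ifi207 rose by 1.94 ± 0.32 on the log2 scale in Lpr (adjusted p = 0.00618) and by 1.15 ± 0.21 in DNase (adjusted p = 0.00433), from 1.78 to 2.07 CPM in Ctr to 4.82 to 9.58 CPM in Lpr. Its value in Lpr lay just under the fold threshold and was called when Lpr replicate 3, Lpr replicate 4 or Ctr replicate 3 was left out.

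Mndal, Ifi209 and Ifi211 did not pass the test in either comparison with Ctr. Mndal was at 6.69, 6.82 and 8.06 CPM in Ctr, at 8.62, 10.5, 4.99 and 6.03 CPM in Lpr and at 5.63, 7.40, 5.72 and 6.51 CPM in DNase. The Ctr values fell inside the Lpr range. Its log2 fold change was 0.08 in Lpr, with a 95% interval from -0.57 to 0.74, so a doubling is outside the interval. In GENCODE vM21 Mndal shares 155 of its 3628 exon bases with genes on the same strand, 118 with Gm38050 and 37 with Ifi203. The interval does not cover reads that could not be assigned there. The intervals of Ifi209 (-0.18 to 1.60) and Ifi211 (-0.26 to 1.82) were wider and include a doubling, and the Lpr values of Ifi209 (1.30 to 1.85 CPM) lay above those of Ctr (0.510 to 1.26 CPM) without overlap. For Ifi211, 56.9% of 100-base windows also occur in other genes, chiefly Ifi205 and Ifi204, and its coding sequence was 97.2% identical to that of Mndal over 813 aligned bases.

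Ifi213 went the other way. It had 32, 57 and 44 counts in the 3 Ctr libraries, 0, 2, 1 and 2 counts in Lpr and 0, 3, 0 and 1 count in DNase. Every MRL/lpr library was far below the lowest Ctr library. Over the pooled counts, corrected for library size, Ctr was 36.1-fold above Lpr (95% counting interval 15.1 to 113) and 46.3-fold above DNase (17.7 to 172). DNase replicate 2 held 3 of the 4 DNase counts, and without it the pooled ratio was 141 (24.8 to 5593) and the fitted log2 fold change -6.77, a calculation added after the data were seen. Leaving out any other single library gave pooled ratios of 34.2 to 55.0 for Ctr over DNase. For Ctr over Lpr, leaving out each library in turn gave 27.1 to 45.9. The fitted log2 fold changes were -5.10 ± 0.63 (adjusted p = 0.00171) and -5.47 ± 0.69 (adjusted p = 0.000456), values that depend on the prior count because the MRL/lpr counts are near 0.

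The same stretch of the cluster, between Aim2 and Ifi207, also holds Ifi206, Ifi214, Ifi209 and Ifi208. Ifi206 had 18, 31 and 32 counts in Ctr, 1, 3, 1 and 8 in Lpr and 2, 5, 2 and 5 in DNase, and was called lower in Lpr (log2 fold change -3.10 ± 0.67, adjusted p = 0.0212) and in DNase (-3.08 ± 0.48, adjusted p = 0.00163). Ifi208 had 63, 76 and 74 counts in Ctr, 27, 50, 7 and 36 in Lpr and 21, 34, 25 and 26 in DNase, with log2 fold changes of -1.34 (adjusted p = 0.174) and -1.58 (adjusted p = 0.00267). Ifi214 had no count in any Ctr library, 4, 9, 0 and 6 counts in Lpr and 4, 3, 5 and 7 in DNase, so that Lpr replicate 3 did not differ from Ctr, and it was not tested. Ifi213, Ifi206 and Ifi208 are near copies: the Ifi213 coding sequence was 96.9% identical to that of Ifi208 over 1758 aligned bases, though only 3.30% of its 100-base transcript windows occur elsewhere. The reference genome is from C57BL/6J, so the alignment of MRL reads to these copies and their expression cannot be told apart with these files. In the 1000000 bases on either side, 10 of 19 neighbouring genes in the count table were tested in each comparison. By adjusted p, 1 rose and 1 fell in Lpr, beside 7.27% and 2.92% of all genes, and 1 rose and 2 fell in DNase against Ctr, beside 13.1% and 8.61%.

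**Figure D2:**
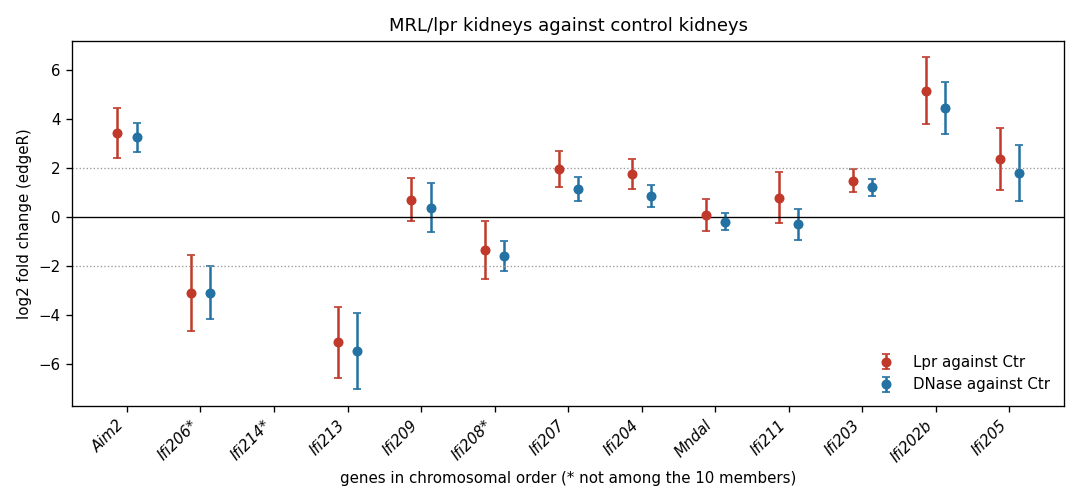
Log2 fold change with its 95% interval (edgeR) for Lpr against Ctr and DNase against Ctr, in chromosomal order; dotted lines mark the fold threshold of 2 log2 units, genes marked * are not members, and Ifi214 was not tested. Ifi206, Ifi213 and Ifi208 lie below 0 between Aim2 and Ifi207, while Aim2, Ifi202b and Ifi205 lie above 0 in both comparisons.

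Per transcript length the order of the members differed between Ctr and the MRL/lpr groups. FPKM values are divided by gene length, which allows levels of different genes to be compared. In Ctr the highest members were Ifi203 (1.47 ± 0.16 FPKM, SD, n = 3), Ifi204 (1.45 ± 0.16) and Mndal (1.42 ± 0.18), which did not differ beyond their spread, and Ifi202b ranked 8 of 10 at 0.186 ± 0.136. In Lpr, Ifi202b ranked first at 6.93 ± 1.71 FPKM (SD, n = 4), followed by Ifi204 at 4.96 ± 1.20 and Ifi203 at 4.24 ± 0.896, within the spread of each other. In DNase, Ifi202b was again first at 4.45 ± 0.757 FPKM, above Ifi203 at 3.63 ± 0.654 and Ifi204 at 2.78 ± 0.594. It was the top member in each of the 8 MRL/lpr libraries. As a share of the FPKM summed over the members, it made up 2.78% ± 1.99 of the Ctr total, 29.5% ± 5.69 of the Lpr total and 28.0% ± 3.31 of the DNase total, while the total went from 6.70 ± 0.724 FPKM in Ctr to 23.6 ± 5.11 in Lpr and 15.9 ± 1.92 in DNase. Its share was 37.8% in Lpr replicate 3, the library with the length slope, and 24.9% to 28.5% in the other Lpr libraries. The order depends in part on the gene lengths behind the deposited values, which differ from the exon bases of GENCODE vM21 for Aim2 (9900 against 3501), Ifi205 (1924 against 4177), Ifi204 (2417 against 3561) and Mndal (4887 against 3628). With the GENCODE lengths, a calculation added after the data were seen, Ifi202b was still first in all 8 MRL/lpr libraries, at 31.9% of the member total in Lpr and 29.4% in DNase. Mndal (1.91 ± 0.24) was then first in Ctr and Ifi204 ranked 4 (0.984 ± 0.107), Ifi203 came before Ifi204 in Lpr (4.23 ± 0.894 against 3.37 ± 0.812), and Aim2 ranked 7 in Lpr at 1.08 ± 0.486, in place of 9 at 0.381 ± 0.172.

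**Figure D3:**
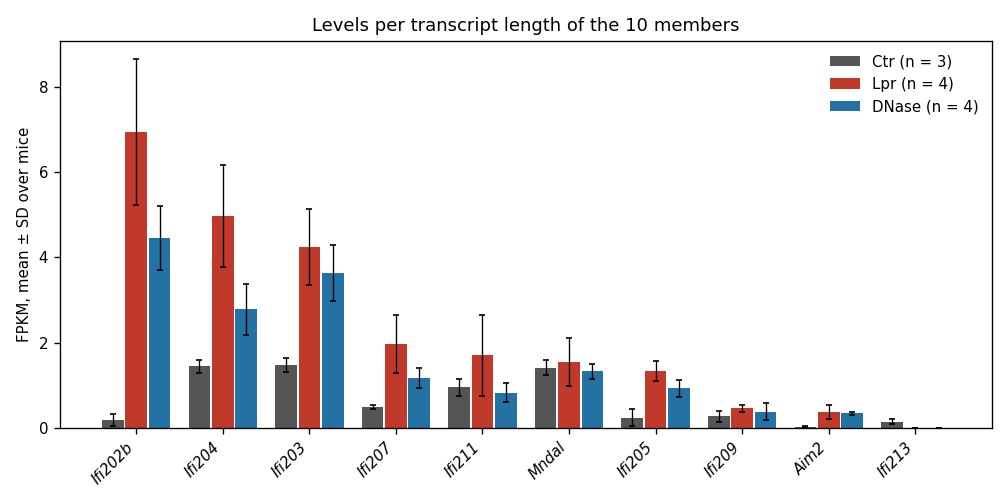
Mean FPKM with SD over mice of the 10 members in Ctr, Lpr and DNase, ordered by the Lpr mean. Ifi202b is the highest bar in Lpr (6.93) and DNase (4.45) and is near 0 in Ctr (0.186).

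The members were also set against Ptprc, the gene of the leukocyte surface protein CD45, which rose in Lpr against Ctr by 2.94 ± 0.36 on the log2 scale (adjusted p = 0.00165). The 5 leukocyte markers rose by 2.36 to 3.01, with a median of 2.64. Ptprc lay above that median, so the ratios depend on the marker chosen. These ratios are descriptions and their part in the changes was not tested. The ratio of Aim2 to Ptprc in CPM had a median of 0.0374 in Ctr, against 0.0527 in Lpr and 0.0462 in DNase, and the DNase libraries overlapped with the Ctr libraries. For Ifi202b the ratio was 0.00692 to 0.0654 over the Ctr libraries, below every MRL/lpr library at 0.114 to 0.333 in Lpr and 0.0987 to 0.125 in DNase. For Ifi203, Ifi204, Ifi209, Ifi211 and Mndal the ratio was lower in every MRL/lpr library than in every Ctr library. For Mndal its median went from 0.931 in Ctr to 0.104 in Lpr and 0.0973 in DNase. The macrophage and monocyte list moved with the leukocyte genes. In both comparisons 9 of its 13 genes were called higher, beside 4.65% of all genes in Lpr and 4.56% in DNase. Its summed level was 189 to 269 CPM in Ctr, 1195 to 2405 CPM in Lpr and 930 to 1753 CPM in DNase. Its first gene, Adgre1, rose by 3.11 ± 0.45 in Lpr (adjusted p = 0.0034).

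Most tested markers of other immune cells were higher in Lpr as well. All 9 T cell markers were called higher in Lpr, where 4.65% of all genes were, with Cd3d at 4.05. Their summed level was 6.18 to 9.49 CPM over the Ctr libraries, 84.5 to 181 CPM over Lpr and 86.6 to 141 CPM over DNase. The 5 plasma cell markers summed to 174 to 190 CPM in Ctr, 396 to 1012 CPM in Lpr and 463 to 1250 CPM in DNase, with Jchain at 5.12. Most of the Ctr sum was Xbp1, at a mean of 141 CPM. The 7 neutrophil markers were at 1.74 to 5.07 CPM in Ctr and 15.4 to 37.8 CPM in Lpr, with S100a8 at 2.89 and no count of Ly6g in any Ctr library. The 6 B cell markers summed to 1.24 to 6.34 CPM in Ctr, 17.3 to 31.2 CPM in Lpr and 18.0 to 43.4 CPM in DNase. Of these, 2 of 5 tested were called higher in Lpr and 4 of 6 in DNase, beside 4.65% and 4.56% of all genes. Of the 7 dendritic cell markers, 5 were higher and 2 lower in Lpr, with 4 higher by adjusted p, beside 7.27% of all genes. The dendritic cell gene Flt3 was at 1.82 (adjusted p = 0.048). In DNase against Ctr, 4 were higher by adjusted p, beside 13.1% of all genes. Cd209a was called lower (-3.36), as were 1.45% of all genes. The endothelial gene Pecam1 was at -0.14 and the tubule gene Lrp2 at -0.37, neither past the test.

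**Figure D4:**
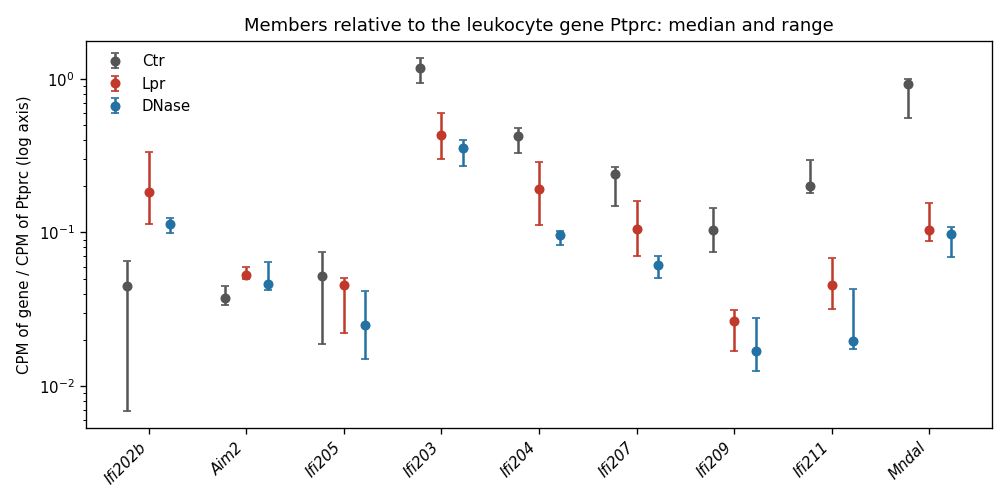
Ratio of the CPM of 9 members to the CPM of Ptprc on a log axis; points are group medians and bars run from the lowest to the highest library (Ifi213 is left out because it was at or near 0 in the MRL/lpr libraries). Ifi202b lies above its Ctr range in both MRL/lpr groups, Aim2 lies at or just above it, and Mndal lies far below it.

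In DNase against Lpr no member was called, and none passed the adjusted p. This holds for edgeR over all 15832 genes tested (0% called in either direction, 886 genes at an unadjusted p under 0.05), and for DESeq2, which called 5 genes and had 17 past the adjusted p, none of them a member. Ifi213 was not tested here because it was at or near 0 in both groups. All 9 tested members had a negative log2 fold change, where 52.9% of all genes did, and 5 of the 9 had an unadjusted p under 0.05, where 3.43% of all genes did in that direction. The adjusted p of these members lay between 0.82 and 0.91, and the groups overlapped for every member, where 2.08% of all genes were higher and 1.68% lower without overlap. The median of the 9 members was -0.56, against -0.02 over all tested genes. All 5 leukocyte markers had negative log2 fold changes too, from -0.32 to -0.01. Ptprc, the least changed of them, was at -0.01 with a 95% interval from -0.60 to 0.58.

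Ifi204 showed the lowest unadjusted p of the family. The DNase libraries lay between 5.35 and 8.22 CPM and the Lpr libraries between 7.65 and 14.8 CPM, so that DNase replicate 3 lay above Lpr replicate 4. The log2 fold change was -0.89, with a 95% interval from -1.43 to -0.36, an unadjusted p of 0.00414 and an adjusted p of 0.82. The two-sided exact permutation test gave p = 0.0571 for Ifi204, Ifi205 and Ifi207, where 0.0286 is the smallest p that 4 against 4 allows. For Ifi202b the log2 fold change was -0.70 (95% interval -1.23 to -0.17, exact permutation p = 0.114), with the ranges 5.83 to 8.70 CPM in DNase and 7.79 to 15.0 CPM in Lpr. Ifi211 had the largest difference, -1.06 (-1.97 to -0.15), with a wide Lpr range of 1.42 to 5.68 CPM beside 1.18 to 2.23 CPM in DNase. Aim2 differed least, at -0.16 (-0.81 to 0.50, exact permutation p = 0.829). For Aim2, Mndal (-0.81 to 0.30) and Ifi203 (-0.67 to 0.13) these intervals exclude a fall of 1 log2 unit, and for the other 6 tested members they do not. Beside these values, the median log2 fold change was -0.20 for the 5 leukocyte markers, -0.43 for the 13 macrophage and monocyte markers, -0.28 for 5 tested neutrophil markers and -0.09 for the 9 T cell markers. It was 0.99 for the 6 B cell markers, all 6 of them higher, 0.34 for the 5 plasma cell markers, 0.08 for 6 tested dendritic cell markers, 0.28 for the 11 kidney epithelial markers, 9 of them higher, and -0.02 for the 6 endothelial markers. No gene of these lists passed the adjusted p, and their part in the result was not tested.

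**Figure D5:**
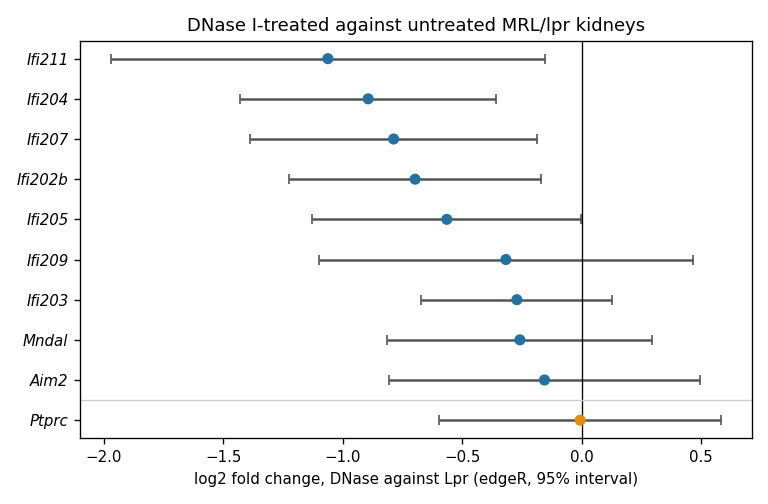
Log2 fold change with its 95% interval (edgeR) in DNase against Lpr for the 9 tested members, ordered by size, with Ptprc for reference. All 9 points lie below 0, between -1.06 (Ifi211) and -0.16 (Aim2), and none passes the adjusted p. Ptprc, the least changed of the 5 leukocyte markers, lies at -0.01.

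Genes that act with the family were counted by list. In the AIM2 inflammasome list, 6 of 11 genes rose in Lpr against Ctr by adjusted p and none fell, beside 7.27% and 2.92% of all genes. Casp1, the effector protease, rose by 2.76 ± 0.38 on the log2 scale (adjusted p = 0.00252), from 0.765 to 1.41 CPM in Ctr to 4.89 to 9.81 CPM in Lpr. Il1b rose by 3.44 ± 0.49 (adjusted p = 0.00299), Casp4 by 2.42 ± 0.41 (adjusted p = 0.00668), the pore-forming Gsdmd by 1.97 ± 0.24 (adjusted p = 0.0017) and Il18 by 1.41 ± 0.28 (adjusted p = 0.0135). Pycard, the adaptor that joins Aim2 to caspase-1, did not pass the test, at 0.21 with a 95% interval from -0.46 to 0.88. Casp8 (0.46), Ninj1 (0.12) and Il1a (3.81, adjusted p = 0.0772) did not pass either. In DNase against Ctr the count was 6 of 10 tested, beside 13.1% of all genes. In DNase against Lpr it was 0 of 11, all with negative log2 fold changes (median -0.28), where 52.9% of all genes were negative.

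Among 13 tested cytosolic DNA sensing genes, 5 rose in Lpr by adjusted p and none fell, beside 7.27% and 2.92% of all genes. Samhd1, a nucleotide-cleaving restriction factor, rose by 1.27 ± 0.30 (adjusted p = 0.0284), while Irf3 was at 0.13 and Hmgb1 at -0.50 (adjusted p = 0.11). In DNase against Ctr, 5 of these 13 rose and 1 fell, beside 13.1% and 8.61% of all genes. Of 14 tested genes of interferon receptors and signalling, 6 rose in Lpr by adjusted p, beside 7.27% of all genes. Among the 6 was the transcription factor Irf1 (2.70 ± 0.36, adjusted p = 0.00223), and Jak1 was at 0.38. In DNase against Ctr, 10 of these 14 rose by adjusted p, beside 13.1% of all genes. Of 24 tested interferon-stimulated genes outside the family, 17 rose in Lpr by adjusted p, beside 7.27% of all genes. Of these, 9 were called, where 4.65% of all genes were called higher. Bst2 was at 2.83 ± 0.31 (adjusted p = 0.000929), Ifi47 at 3.81 ± 0.37 (adjusted p = 0.000651) and Ddx58 at 0.92 (adjusted p = 0.143). In DNase against Lpr all 24 had negative log2 fold changes, where 52.9% of all genes did. Their median was -0.80, beside -0.56 for the p200 members, and none passed the adjusted p. The groups of Ifi47 did not overlap in DNase against Lpr (log2 fold change -0.88, exact permutation p = 0.0286), as for 1.68% of all genes in that direction. In DNase against Ctr, 19 of the 24 rose and 1 fell, again beside 13.1% and 8.61% of all genes.

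The genes whose profile over the 11 libraries lay nearest to each member were found by the root mean square distance of centred log2 CPM, among 16499 genes. Ifi202b lay nearest to Ifi44l (distance 0.344), an interferon-stimulated gene, and Ifi203 to Trim30a (0.113). Ifi204 lay nearest to Ube2l6 (0.163), the conjugating enzyme for ISG15, and Ifi207 to Tapbp (0.196), the peptide-loading protein tapasin. Aim2 lay nearest to Fyb (0.187), a leukocyte adaptor. The others were Gcsam for Ifi205, Dram1 for Ifi209, Sema4c for Ifi211, Gm16867 for Ifi213 and Rnf122 for Mndal. Within the family, Ifi204 and Ifi207 were each other's nearest members (0.257), and for Ifi213 the nearest member, Mndal, was 1.82 away. These distances describe likeness over 3 groups of libraries and share the depth and makeup of those libraries.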

How the data were processed

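RNA from the kidneys of 11 mice was sequenced by the study (100-base paired-end reads). The authors deposited raw counts per gene and FPKM values for 25677 genes; the submitters' processing notes name fastp, HTSeq, DESeq2 and mm10, and the aligner, annotation and strand setting are not given in the sources used here. The deposited FPKM equal the count divided by gene length and library total. Samples were grouped by their labels. From the counts, edgeR 4.0.16 (R 4.3.3; filterByExpr, TMM, quasi-likelihood test, 2 groups per fit) gave fold changes and Benjamini-Hochberg adjusted p-values; DESeq2 1.42.0 and limma 3.58.1 on log2(FPKM + pseudocount) were alternatives, as were other scalings, no filter, 1 fit of all groups, a replicate block and leaving out each library. The tests were checked on simulated counts. CPM use TMM over all 11 libraries; intervals cover 95%, and counting intervals cover counting error only. By the study's methods each library came from a separate mouse. Positions and exon sequences came from GENCODE vM21 (GRCm38, the same build as mm10) and start regions from RefSeq GRCm38.p6 tables, aligned with Biopython 1.88. Identity was computed on coding sequence in place of protein. Named genes were all 10 members, every tested inflammasome gene, the 3 most abundant genes of each other pathway list, the first gene of each marker list and any marker with no count in a group, and the nearest profile gene of each member; some genes that this rule names are not reported here. The members and lists were chosen with earlier results of these data known.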

Additional observations from a re-analysis of the deposited data

Results flagged for a closer look

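Ifi203 in the DNase group was set apart by a single library: DNase replicate 2 was at 29.5 CPM and the next library at 22.3 CPM, a gap of 0.837 of the range of the 4 libraries, just above the critical ratio of 0.829. This was 1 of 20 groups of 4 values examined (10 members in Lpr and DNase), and chance marks about 1 in 20. Without that library the log2 fold change of Ifi203 in DNase against Ctr still passed the test.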

How the results depend on the processing

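Of 457 values of single members under another setting, 443 kept their direction and their side of the adjusted p. For values not past the adjusted p in the main fit, this means only that they stayed so, and size was not counted. The adjusted p was lost in 11, and 3 turned sign. Ifi205 lost it under 4 of 16 settings in Lpr against Ctr and 5 of 16 in DNase against Ctr. The counts of members called moved most with limma on FPKM: in Lpr against Ctr from 4 to 1 at a pseudocount of 1, to 2 at 0.1 and to 1 without the filter on low FPKM, and in DNase against Ctr from 3 to 1 in each of the 3. That filter (mean FPKM of 0.5) removes Aim2, Ifi209 and Ifi213, and the pseudocount shrinks low genes. Aim2 without the filter had adjusted p = 0.0582 in Lpr. Leaving out each library, the members called ranged from 3 to 5 in Lpr against Ctr and from 3 to 4 in DNase against Ctr, those past the adjusted p from 6 to 7 in both, and in DNase against Lpr from 0 to 0. Signs turned, none past the test, for Mndal in Lpr against Ctr without Lpr replicate 2 (log2 fold changes from -0.14 to 0.23 over the libraries left out), for Ifi209 in DNase against Ctr without DNase replicate 3 (-0.029 to 0.57) and for Aim2 in DNase against Lpr without Lpr replicate 2 (-0.34 to 0.15).

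Replicate numbers did not pair the mice: correlations of same-numbered libraries ran from -0.28 to 0.16. With the replicate block, 5 members were called in Lpr against Ctr (Ifi207 added), 3 in DNase against Ctr and 0 in DNase against Lpr, and Ifi204 (adjusted p = 0.0701) and Ifi205 (0.0803) missed the threshold in DNase against Ctr. Ifi205 also missed it there without Ctr replicate 3 or DNase replicate 1, 2 or 4 (0.0614 to 0.0933). Without Lpr replicate 3, 5 members were called in Lpr against Ctr. Over all genes, 929 were called in Lpr against Ctr (204 to 1175 under the alternatives) and 1639 passed the adjusted p (852 to 2824, the highest without Lpr replicate 3 and the lowest without Ctr replicate 1). In DNase against Ctr 967 were called (190 to 1252) and 3493 passed (1869 to 4239). Few counts limit Ifi213 and Ifi214 in MRL/lpr and Ifi202b, Ifi205 and Aim2 in Ctr.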
